A study of Mus musculus with 6 samples.

Results

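The ERK pathway feedback genes are 10 genes that many cell types transcribe when the kinase ERK is active. They were chosen by name, as known readouts of ERK activity, and comprise the phosphatase genes Dusp4, Dusp5 and Dusp6, the Sprouty genes Spry1, Spry2 and Spry4, the Spred genes Spred1 and Spred2, and the transcription factor genes Etv4 and Etv5. All 10 were found among the 43548 gene identifiers of the deposited table, each in 1 row, and all 10 had a mean of at least 1 FPKM (sequenced fragments scaled to transcript length and library size), so that all entered the test. mRNA was sequenced from Met-1 TripZ-200c cells, which are Met-1 cells, a mouse mammary carcinoma line from a late-stage MMTV-PyMT tumor of the FVB/nJ strain, with a pTripZ lentivirus from which doxycycline (Dox) switches on the miR-200c precursor. The cells are a single clone, sorted for an intermediate level of the vector's red fluorescent reporter with Dox. Cells without Dox (Minus Dox) received water as vehicle and cells with Dox (Plus Dox) received 1 µg/mL for 48 h, with 3 libraries of separately plated cultures in each group. All 6 libraries carry the miR-200c vector, and cells with the empty vector were not analysed here, so an effect of Dox itself and an effect of miR-200c cannot be told apart.

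Growth factor receptors activate RAS, RAF, MEK and then ERK, and ERK in turn switches on genes whose products damp the same pathway. Dual-specificity phosphatases remove the activating phosphates from ERK, Sprouty and Spred proteins act further upstream between the receptor and RAF, and Etv4 and Etv5 are ETS family factors of the PEA3 group that carry part of the transcriptional output. In breast carcinoma cells the level of such transcripts is widely read as a measure of how active the pathway is. MiR-200c is a microRNA that keeps epithelial cells epithelial, chiefly by repressing the transcription factors Zeb1 and Zeb2.

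With Dox the feedback genes did not move together. Spry1 rose 2.06-fold and Dusp5 1.56-fold, whereas Dusp6, Spry2 and Dusp4 fell, so that 5 of the 10 genes passed an adjusted p of 0.05 in limma, 2 of them higher and 3 lower. Of all 12879 genes tested, 15.0% passed, 7.06% higher and 7.97% lower. The groups of 3 libraries did not overlap in 9 of the 10 genes, 3 higher and 6 lower with Dox, and the same separation was found in 35.0% of all genes tested, 17.4% higher and 17.6% lower. The median log2 fold change of the 10 genes was -0.14, against 0.0039 over all genes tested. The median of the absolute log2 fold changes was 0.25 over the 10 genes and 0.13 over all genes tested. With 1 library left out in turn, 3 of the 10 genes passed without the third Minus Dox library, without the first Plus Dox library and without the third Plus Dox library, and 4 or 5 passed without each of the others.

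**Figure D1:**
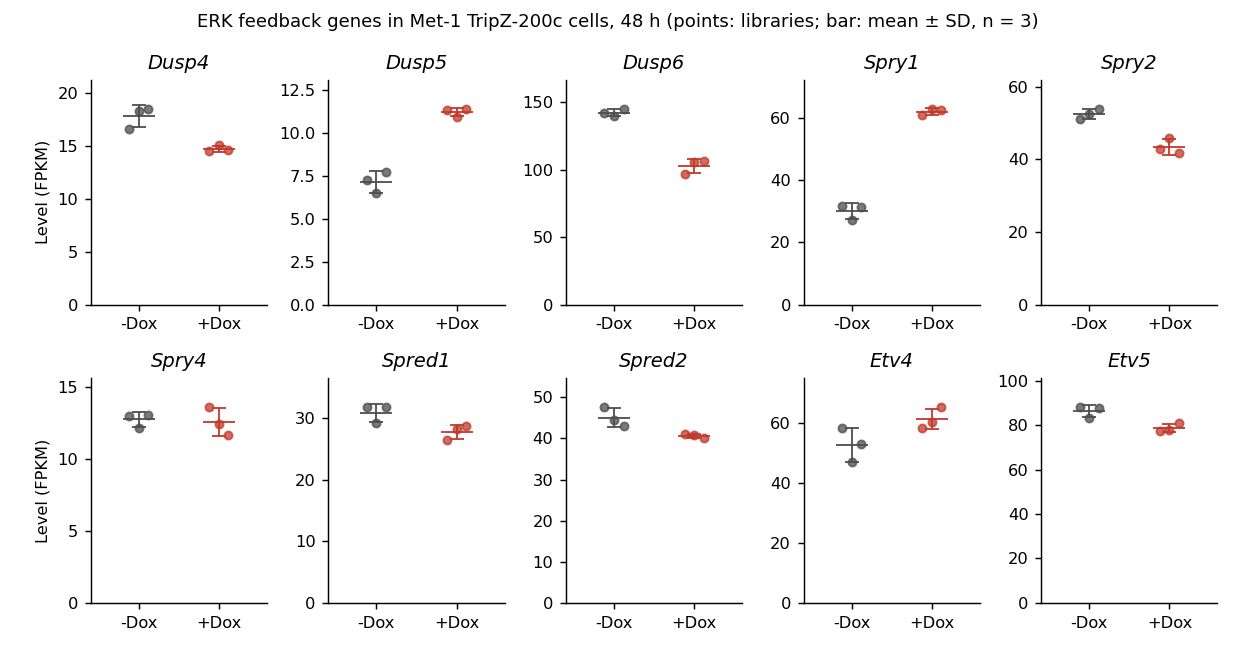
Level in FPKM (vertical axes, from 0) of the 10 ERK feedback genes in each of the 3 libraries without Dox (grey) and with Dox (red), drawn in the order of replicate number, with the mean and SD of each group. Spry1 and Dusp5 sit higher and Dusp6, Spry2 and Dusp4 lower with Dox with no overlap, and the groups overlap in Spry4.

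MiR-200c pairs with target mRNAs mainly through its seed, bases 2 to 8 of the mature strand, so the sequences shown first are that strand and the places in the 3' UTRs (untranslated regions) of the feedback genes that match it. The mature mmu-miR-200c-3p of RefSeq, from the minus strand of GRCm38.p6 at chr6:124718324-124718346, is given with its seed in capitals. Below it stand the matches to the 7 bases complementary to the seed, in capitals, within 30 bases of the longest annotated 3' UTR of GENCODE M21, which is the C57BL/6J reference and not the FVB/nJ genome of the cells. The sites lie at chr8:34819260-34819289 on the plus strand for Dusp4, at chr11:20022325-20022354 on the plus strand for Spred2 and at chr16:22382782-22382811 on the minus strand for Etv5.
mmu-miR-200c-3p: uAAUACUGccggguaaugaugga
Dusp4: gatccttctaggccaCAGTATTatacttag
Spred2: tattcaaacacaagcCAGTATTctgtgaac
Etv5: agatgatgaacatgaCAGTATTttgttttg

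These are the only matches to all 7 bases, 1 in each of 3 of the 10 genes (30.0%). Of the 10798 genes tested that have an annotated 3' UTR, 16.1% hold at least 1. The share was 31.1% among the 964 of those genes that were lower with Dox and 8.5% among the 845 that were higher. The median length of the 3' UTR was 1150.5 bases over the 10 feedback genes and 1201 bases over all genes tested. The match of Dusp4, at bases 492 to 498 of a 3' UTR of 1111 bases, is followed by an A and so matches 8 bases of an ideal site, and Dusp4 was lower with Dox. The matches of Spred2 and Etv5 are of 7 bases, and neither gene passed the test. Spry1, Dusp5, Dusp6, Spry2, Etv4, Spred1 and Spry4 hold no match to all 7 bases, and these include the genes with the largest rise and the largest fall. Shorter matches, to 6 of these bases, number 1 in Spry1, 1 in Spry4 and 2 in Spred1. Dusp5, Dusp6, Spry2 and Etv4 hold 0 of them. The share of all genes with such a shorter match was not counted. Binding of miR-200c was not measured here, and a link between these matches and the changes of the 10 genes was not tested.

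Of the 3 phosphatase genes, 2 fell and 1 rose. Dusp6 (ENSMUSG00000019960, chromosome 10 of GRCm38 from 99263231 to 99267489, plus strand) encodes a phosphatase that works in the cytoplasm with a strong preference for ERK. Its level was 142, 139.6 and 145 FPKM in the 3 libraries without Dox and 97.0, 106 and 107 FPKM in those with Dox. Every library with Dox was thus lower than every library without it, and the mean went from 142 ± 2.70 to 103 ± 5.26 FPKM (SD, n = 3 each). In limma this was a log2 fold change of -0.47 with a standard error of 0.0453 (adjusted p = 9.60e-04), a fall of 27.6%. It was the largest decrease among the 10 genes, and it passed with each library left out in turn, at log2 fold changes between -0.49 and -0.42.

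Dusp4 (ENSMUSG00000031530, chromosome 8 from 34807297 to 34819894, plus strand) encodes an inducible phosphatase of the nucleus that acts on ERK and on other MAP kinases. Its level was 16.6, 18.3 and 18.5 FPKM without Dox and 14.5, 15.1 and 14.6 FPKM with Dox. The groups did not overlap, but the lowest library without Dox was close to the highest with it. The fall measured -0.27 on the log2 scale, with a standard error of 0.0668 and an adjusted p of 0.0372 in limma. This call was lost in 8 of 15 alternatives, 6 of which left out a library and 9 of which changed the filter, the scale or the model. The adjusted p from limma was 0.109 without the second and 0.108 without the third library without Dox, and it was 0.103, 0.0869 and 0.112 without replicates 1, 2 and 3 of the libraries with Dox. Left out in turn, the first library without Dox alone kept it past the threshold, at 0.0351.

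Dusp5 (ENSMUSG00000034765, chromosome 19 from 53529109 to 53542431, plus strand) encodes the inducible nuclear phosphatase that is specific for ERK, and it moved the other way. Its level was 7.23, 6.48 and 7.72 FPKM without Dox and 11.3, 10.9 and 11.4 FPKM with Dox, so that every library with Dox was higher. Limma gave a log2 fold change of 0.65 with a standard error of 0.0909 (adjusted p = 0.00470), a fold of 1.56 with a 95% interval of 1.35 to 1.82. It passed in all 15 alternatives, with an adjusted p of 0.0271 at most. An annotated antisense gene, AC137853.2, lies over 547 bases of the first part of Dusp5, which is 22.1% of the longest transcript. The libraries were made with a stranded kit, and whether strand was used in counting is not given in the sources used here.

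The ratio of Dusp5 to Dusp6 in the same library was 0.0508, 0.0464 and 0.0532 without Dox and 0.117, 0.104 and 0.107 with Dox. The ratios did not overlap, which follows from Dusp5 being higher and Dusp6 lower in every library with Dox. An exact two-sided permutation test of their log2 values therefore had to give p = 0.1, the smallest that 3 libraries against 3 allow. Because Dusp6 was by far the more abundant, the sum of Dusp4, Dusp5 and Dusp6 went down all the same, from 167 ± 3.55 to 129 ± 5.36 FPKM (SD, n = 3 each).

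The promoters of Dusp5 and Dusp6 differ in their letters. The RefSeq promoters of GRCm38.p6, from 250 bases before to 50 bases after the start of the gene, are given for both because the motifs found in them differ. Capitals mark matches to the motifs that were searched on both strands. The first lies at chr19:53528895-53529194 and the other at chr10:99262981-99263280, both on the plus strand.
Dusp5: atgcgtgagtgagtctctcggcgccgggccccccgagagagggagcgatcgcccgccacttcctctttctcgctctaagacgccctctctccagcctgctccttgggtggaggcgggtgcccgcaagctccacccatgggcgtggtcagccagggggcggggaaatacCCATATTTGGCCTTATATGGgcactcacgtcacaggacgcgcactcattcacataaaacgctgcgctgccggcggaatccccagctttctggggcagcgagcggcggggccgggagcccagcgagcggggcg
Dusp6: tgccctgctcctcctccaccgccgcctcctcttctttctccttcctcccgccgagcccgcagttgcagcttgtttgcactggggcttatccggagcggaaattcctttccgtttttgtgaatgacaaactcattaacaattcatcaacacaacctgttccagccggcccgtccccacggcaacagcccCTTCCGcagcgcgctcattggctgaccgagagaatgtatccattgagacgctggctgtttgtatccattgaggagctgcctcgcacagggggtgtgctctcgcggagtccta

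The Dusp5 promoter holds 2 CArG boxes, the binding letters of serum response factor, which begin 82 and 72 bases before the start and stand side by side without overlap. A CArG box is found in 1.6% of the 32851 promoters of the table. The Dusp6 promoter holds none, and has instead 1 match to CGGAAG, the core of many ETS sites, which begins 62 bases before the start on the strand opposite to the gene. Such a core is found in 16.9% of all promoters. Promoters of 7 of the 10 genes were matched. Of the others, Spred1 has 2 ETS cores and Spred2 has 1, and Spry1, Spry2 and Etv5 have no match to any motif searched. The AP-1 motif TGANTCA (7.8% of all promoters), the cyclic AMP response element TGACGTCA (1.8%) and the E-box CACCTG that Zeb1 can bind (20.2%) were found in 0 of these 7 genes. Spry1 and Spry2, neither with a match, moved in opposite directions. The matches describe letters within 300 bases only, and a link between them and the direction of change was not tested.

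**Figure D2:**
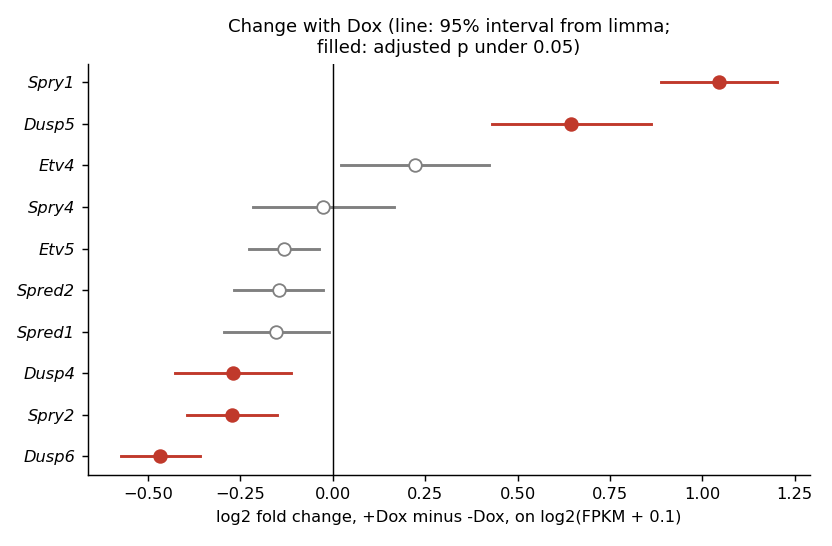
Change of each ERK feedback gene with Dox as log2 fold change on the log2(FPKM + 0.1) scale (horizontal axis), with its 95% interval from limma, ordered by size, filled where the adjusted p was under 0.05. Spry1 (1.04) and Dusp5 (0.65) lie to the right and Dusp6 (-0.47), Spry2 (-0.27) and Dusp4 (-0.27) to the left.

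The Sprouty genes diverged as well. Sprouty proteins are inhibitors of receptor tyrosine kinase signalling that are induced by the pathway they restrain. Spry1 (ENSMUSG00000037211, chromosome 3 from 37639947 to 37644598, plus strand) measured 31.9, 27.3 and 31.4 FPKM in the libraries without Dox and 61.0, 63.0 and 62.5 FPKM in those with it. The 3 values with Dox lay close to each other and each was far above all values without Dox. Limma gave a log2 fold change of 1.04 with a standard error of 0.0668 (adjusted p = 1.91e-04), a fold of 2.06 with a 95% interval of 1.85 to 2.30. It was the largest change among the 10 genes and passed in all 15 alternatives, at log2 fold changes between 0.97 and 1.09. An annotated transcript of the opposite strand, Gm42922, overlaps Spry1 at its first part, with the same limit on strand as for Dusp5. Other annotated genes, Gm42922 most of all, share 20.8% of the longest Spry1 transcript.

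Spry2 (ENSMUSG00000022114, chromosome 14 from 105891947 to 105896819, minus strand) measured 51.1, 52.3 and 53.8 FPKM in the libraries without Dox and 42.7, 45.9 and 41.6 FPKM in those with it. The groups did not overlap, and all libraries with Dox were lower. The difference was -0.27 on the log2 scale with a standard error of 0.0515 (adjusted p = 0.0145 in limma), a fall of 17.2%. The adjusted p from limma rose just above the threshold, so that the call was lost, without the third library without Dox (0.0509), without the first library with Dox (0.0507) and without the third (0.0560). As a result of these opposite changes the ratio of Spry1 to Spry2 within a library rose. It was 0.623, 0.521 and 0.583 without Dox and 1.43, 1.37 and 1.50 with Dox. Its exact two-sided permutation p of 0.1, the smallest possible, was likewise fixed by the separation of both genes. Spry2 was the more abundant Sprouty transcript per length without Dox, and Spry1 was with Dox. The sum of Spry1, Spry2 and Spry4 was 95.3 ± 3.29 FPKM without Dox and 118 ± 2.82 FPKM with Dox (SD, n = 3 each), with no overlap.

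Spry4 (ENSMUSG00000024427, chromosome 18 from 38586247 to 38601415, minus strand) was the one feedback gene whose groups overlapped. Its level was 13.0, 12.2 and 13.1 FPKM without Dox and 13.6, 12.4 and 11.6 FPKM with Dox. The means differed by -0.025 on the log2 scale, with a standard error of 0.0811 and an adjusted p of 0.870 in limma. The 95% interval of the fold, 0.861 to 1.12, leaves room for a change of that size either way. Without the third library with Dox the sign turned, at a log2 fold change of 0.027.

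The Spred genes encode relatives of the Sprouty proteins, which hold the RAS inhibitor neurofibromin at the membrane. Spred1 (ENSMUSG00000027351, chromosome 2 from 117121374 to 117182279, plus strand) measured 31.7, 29.2 and 31.8 FPKM in the libraries without Dox and 26.4, 28.2 and 28.7 FPKM in those with it. Spred2 (ENSMUSG00000045671, chromosome 11 from 19924375 to 20024026, plus strand) measured 47.6, 44.6 and 43.0 FPKM in the libraries without Dox and 41.0, 40.9 and 40.1 FPKM in those with it. In both genes all libraries with Dox lay below those without, by a narrow margin. Neither passed, with a log2 fold change of -0.15 for Spred1 (adjusted p = 0.143 from limma) and of -0.15 for Spred2 (adjusted p = 0.103 from limma). The 95% intervals of the folds were 0.815 to 0.992 for Spred1 and 0.831 to 0.981 for Spred2. These intervals are for 1 gene at a time and do not allow for the number of genes tested.

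The PEA3 group factors did not pass either. Etv5 (ENSMUSG00000013089, chromosome 16 from 22381309 to 22439719, minus strand) measured 88.0, 83.4 and 87.7 FPKM in the libraries without Dox and 77.4, 78.0 and 80.9 FPKM in those with it. The groups did not overlap, and the log2 fold change of -0.13 had an adjusted p of 0.0700 from limma, with a 95% interval of the fold from 0.854 to 0.974. Other annotated genes, Gm4798 most of all, share 42.8% of the longest Etv5 transcript at 95% identity or more. Part of the Etv5 reads may thus be hard to assign, which was not tested. Etv4 (ENSMUSG00000017724, chromosome 11 from 101769742 to 101785371, minus strand) measured 58.36, 46.9 and 52.8 FPKM in the libraries without Dox and 58.38, 60.4 and 65.1 FPKM in those with it. The first library with Dox lay just above the first without it, and the libraries without Dox spread widely, with an SD of 5.75 FPKM around a mean of 52.7 FPKM. The log2 fold change was 0.22 (adjusted p = 0.134 from limma), with a 95% interval of the fold from 1.02 to 1.34. The sum of Etv4 and Etv5 was 139 ± 8.13 FPKM without Dox and 140.1 ± 5.31 FPKM with Dox (SD, n = 3 each). Their ratio, Etv4 to Etv5 within a library, was 0.663, 0.562 and 0.603 without Dox and 0.754, 0.775 and 0.806 with Dox. As for the Dusp5 to Dusp6 and Spry1 to Spry2 ratios, the groups did not overlap (exact two-sided permutation p = 0.1, the smallest possible). This too was fixed in advance, as Etv4 was higher and Etv5 lower in every library with Dox.

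FPKM are divided by transcript length, so levels can be set side by side between genes. Without Dox the order from the highest mean was Dusp6, Etv5, Etv4, Spry2, Spred2, Spred1, Spry1, Dusp4, Spry4 and Dusp5. The ranges of neighbours in this order overlapped for Etv4 and Spry2 and for Spred1 and Spry1, and for no other neighbours. With Dox, Spry1 stood next after Dusp6 and Etv5, and its range overlapped that of Etv4, the next gene and the only neighbour pair to overlap. Spry1 made up 6.32% of the summed FPKM of the 10 genes without Dox and 13.7% with Dox, while Dusp6 made up 29.8% and 22.6%. The sum over the 10 genes was 478 ± 15.1 FPKM without Dox and 456 ± 10.7 FPKM with Dox (SD, n = 3 each, exact two-sided permutation p = 0.3), and the 2 groups overlapped in this sum.

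**Figure D3:**
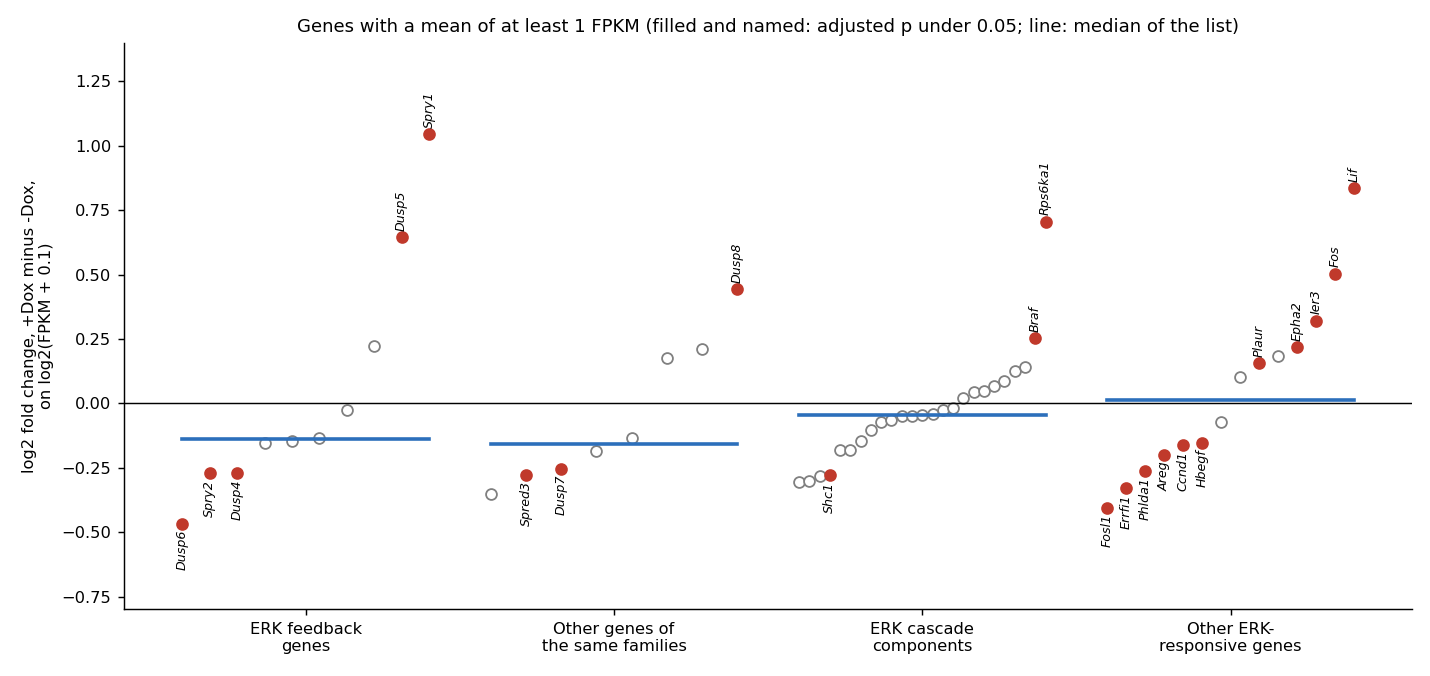
Log2 fold change with Dox on the log2(FPKM + 0.1) scale (vertical axis) of the genes in 4 lists whose mean reached 1 FPKM, each point 1 gene, filled and named where the adjusted p from limma was under 0.05, with the median of each list as a line. Each list holds genes that passed in both directions, with medians of -0.14, -0.16, -0.044 and 0.015 from left to right.

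The other genes of the same 3 families were also split. Of 10 listed genes 8 were tested, and 3 passed, 1 higher and 2 lower, with a median log2 fold change of -0.16. Over all genes tested 15.0% passed, 7.06% higher and 7.97% lower. Dusp8, which encodes a phosphatase that prefers the stress-activated MAP kinases, rose from 17.2 ± 0.568 to 23.5 ± 1.55 FPKM (SD, n = 3 each, log2 fold change 0.44, adjusted p = 0.00658 from limma). Dusp7, whose product like that of Dusp6 is a cytoplasmic ERK phosphatase, fell from 57.8 ± 3.49 to 48.5 ± 2.29 FPKM (log2 fold change -0.25, adjusted p = 0.0316 from limma). Spred3 fell from 22.6 ± 0.270 to 18.7 ± 1.30 FPKM (log2 fold change -0.28, adjusted p = 0.0321 from limma). Dusp7 and Spred3 each passed in 1 of the 6 fits with a library left out. The count was 1 without the first library without Dox and without the first library with Dox, and 2 without each of the others.

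The remaining tested genes of these families had log2 fold changes of -0.13 for Dusp1, 0.18 for Dusp9, -0.19 for Dusp10, 0.21 for Dusp16 and -0.35 for Etv1, and limma gave them adjusted p-values of 0.144, 0.209, 0.168, 0.0629 and 0.0615 in that order. Etv1, the third PEA3 group factor, measured 52.8, 40.9 and 52.8 FPKM in the libraries without Dox and 36.8, 38.7 and 38.5 FPKM in those with it. The second library without Dox stood apart from the others of its group, and without it the adjusted p of Etv1 from limma was 0.00486. Dusp2 was at 0.0841 FPKM or lower in every library and Spry3 was listed at 0 in all 6.

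The list of ERK cascade components runs from adaptors at the receptor to kinases that ERK activates. Of its 25 genes, all tested, 3 passed (2 higher and 1 lower), a count near the 15.0% of all genes tested. The median log2 fold change was -0.044. Rps6ka1, which encodes a ribosomal S6 kinase that ERK activates, rose from 30.2, 29.6 and 30.3 FPKM to 50.4, 48.2 and 48.6 FPKM. In limma the log2 fold change was 0.70 with a standard error of 0.0434 (adjusted p = 1.65e-04), and it passed in all 15 alternatives. Shc1, which encodes an adaptor that links receptors to RAS, fell from 86.9 ± 2.64 to 71.6 ± 2.20 FPKM (SD, n = 3 each, log2 fold change -0.28, adjusted p = 0.00617 from limma). Braf rose from 25.2 ± 0.904 to 30.0 ± 1.83 FPKM (log2 fold change 0.25, adjusted p = 0.0388 from limma), a call that held in 1 of the 6 fits with a library left out. Mapk3, which encodes a form of ERK itself, did not pass (log2 fold change -0.050, limma adjusted p = 0.451), nor did Hras, Nras, Map2k1 or Map2k2.

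Other genes known to respond to ERK were again found on both sides. Of 16 listed genes 14 were tested and 11 passed, 5 higher and 6 lower, with a median log2 fold change of 0.015. The share over all genes tested was 15.0%, with 7.06% higher and 7.97% lower. The list was chosen with earlier results of these data known. Lif, which encodes a cytokine, rose most, from 22.1 ± 1.44 to 39.6 ± 3.82 FPKM (SD, n = 3 each, log2 fold change 0.83, adjusted p = 0.00113 from limma). Fosl1, which encodes the AP-1 factor Fra-1, fell most, from 239 ± 8.51 to 180.3 ± 8.78 FPKM (log2 fold change -0.41, adjusted p = 0.00183 from limma). Errfi1, an inhibitor of the EGF receptor, fell by 0.33 on the log2 scale (adjusted p = 0.00458 from limma).

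Ccnd1, Epha2, Epha4 and Phlda1 are often read together with several of the feedback genes as an ERK activity score. Ccnd1, which encodes cyclin D1, was the most abundant gene of the list and fell from 1175 ± 18.9 to 1050.5 ± 3.30 FPKM (log2 fold change -0.16, adjusted p = 0.00406 from limma). Phlda1 fell from 202 ± 7.58 to 168 ± 6.75 FPKM (log2 fold change -0.26, adjusted p = 0.00904 from limma). The receptor gene Epha2 rose from 131 ± 2.60 to 153 ± 4.37 FPKM (log2 fold change 0.22, adjusted p = 0.00861 from limma). Epha4 was listed at 0 in all 6 libraries.

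The other genes of the list that passed were Fos (0.50), Ier3 (0.32) and Plaur (0.16), which rose, and Areg (-0.20) and Hbegf (-0.15), which fell, the values being log2 fold changes. Their adjusted p-values from limma lay between 0.0242 for Ier3 and 0.0476 for Fos, and all 5 calls were lost in most fits with a library left out. Ier3 passed in 2 of these 6 fits, Plaur in 1, and Fos, Areg and Hbegf in 0. Egr1, Myc and Maff did not pass, and Ereg was below the filter. The count of the list was 7, 6 and 7 without replicates 1, 2 and 3 of the libraries without Dox, and 8, 6 and 6 without replicates 1, 2 and 3 of those with Dox.

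**Figure D4:**
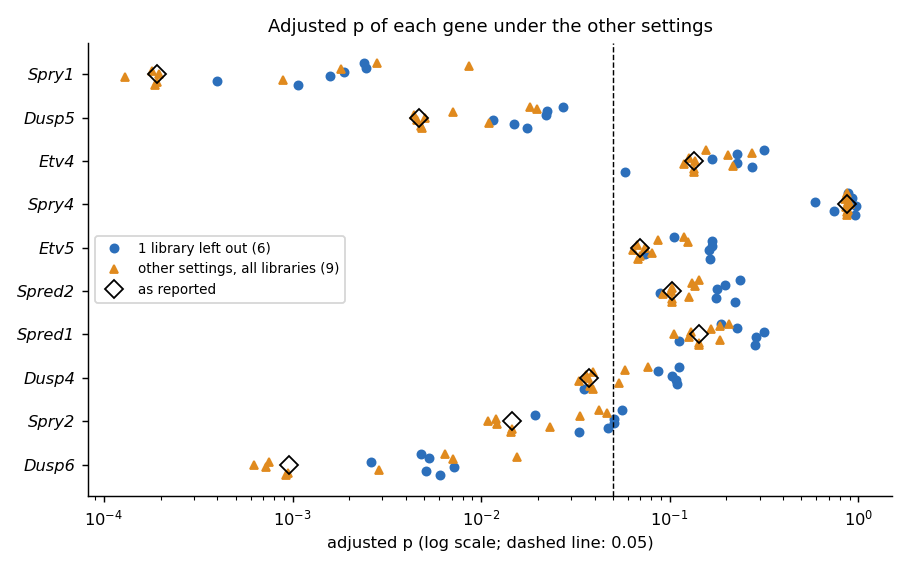
Adjusted p (horizontal axis, log scale) of each ERK feedback gene as reported (diamonds), with 1 library left out in turn (6 circles) and under 9 other settings with all libraries (triangles). Spry1, Dusp5 and Dusp6 stay left of 0.05 in all 15 alternatives, Spry2 in 12 and Dusp4 in 7, and the other 5 genes in 0.

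The libraries were alike in their totals, with FPKM sums between 800267 and 815139. The number of reads is unknown, and relative depth, read from the steps of the lowest FPKM values, lay between 0.918 and 1.49 times that of the first library without Dox. Values of the 10 genes were far above the lowest steps, the lowest being 6.48 FPKM for Dusp5. Zeb1 went from 41.8 to 21.2 FPKM and Zeb2 from 29.3 to 8.29 FPKM, and the miR-200c gene itself was listed at 0 in all 6 libraries. The level of the mature microRNA was not measured in these data. The 6 epithelial markers summed to between 91.6 and 98.0 FPKM without Dox and between 370 and 407 FPKM with Dox, nearly all of it Krt18. Only Krt18 and Epcam, 2 of the 6, had a mean of at least 1 FPKM. Cldn7 overlapped between the groups, with a mean of 0.322 FPKM without Dox and 0.264 FPKM with it. The mesenchymal markers with all values, 4 of 5, summed to between 4016 and 4229 FPKM without Dox and between 3162 and 3327 FPKM with Dox, nearly all of it Vim. Cdh2 overlapped between the groups (log2 difference -0.061, adjusted p = 0.342 in limma), and Fn1, which has missing values and was left out of the sum, had a log2 difference of 0.060 over the remaining libraries (adjusted p = 0.371 in limma). The part of this shift in the changes of the feedback genes was not tested. Of the markers of other cell types, the 3 adipocyte genes were listed at 0, 2 of 5 leukocyte genes were above 0 (summed 6.34 to 11.3 FPKM without and 6.70 to 7.57 FPKM with Dox, nearly all Cd68), and the 4 endothelial genes summed to 4.47 to 5.12 and 4.19 to 4.59 FPKM, mostly Cdh5.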

How the data were processed

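The comparison used 3 mRNA libraries of Met-1 TripZ-200c cells without Dox and 3 with it, grouped by the sample labels. The authors mapped single 50-base reads with gSNAP (GRCm38.p6 in the processing notes of the labels, while the methods also name an FVB/NJ assembly, and coordinates here are those of GRCm38) and deposited FPKM per gene and library from Cufflinks, with their own means, fold changes, p-values and q-values, which were not used. Placeholder values (6 values of 4 genes, none of them a feedback gene) were set to missing, and each repeated identifier was represented by its row of highest mean. There were 0 unused columns of per-sample values.

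Genes whose mean reached 1 FPKM were compared on log2(FPKM + 0.1), which understates the change of low genes. The test was limma 3.58.1 under R 4.3.3, a moderated linear model with a mean-variance trend and no covariate beside Dox, with Benjamini-Hochberg adjustment over 12879 genes and a threshold of 0.05. The model was run on simulated data with known changes and independent noise, as a check of its estimates and not of the calls here. Alternatives were other pseudocounts, filters and scalings, other forms of the linear model, a replicate block, and each library left out in turn. P-values measure the spread between cultures of 1 clone. The 10 genes and the lists were chosen with earlier results of these data known. All feedback genes, the expressed genes of their families and the other listed genes that passed were named, with Ccnd1, Epha2, Epha4 and Phlda1. Shared sequence was sought with BLAST 2.17.0 (minimum 95% identity and 50 bases). Python 3.11.15 was used for sequences and plots. Depth is not stated in the table, so no counting interval is given. Single genes of the cascade list that did not pass are in part not reported here.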

Additional observations from a re-analysis of the deposited data

How the results depend on the processing

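Over the 15 alternatives, all planned, Spry1, Dusp5 and Dusp6 kept their direction and their side of the threshold. Dusp4 lost its call in 8 and Spry2 in 3, and Etv4, Etv5, Spred1 and Spred2 kept their direction without passing. Spry4 reversed in 1, at 0.0269 without the third library with Dox (range -0.0837 to 0.0269 with a library left out), and was not past the threshold in any. Without a filter on low values 7 of the other ERK-responsive genes passed, without the limma trend 6, and in the unmoderated linear model on log2(FPKM + 1) 7, with 1 of the other family genes in that model. Dusp4 had an adjusted p of 0.0538 without the filter and 0.0580 in the unmoderated model.

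Same-numbered libraries of both groups were not shown to be paired. Their deviations from the group means correlated at 0.029, 0.036 and -0.0076 across genes for replicates 1, 2 and 3. Libraries of different numbers correlated at -0.051 to 0.024. With the replicate number as a block 1337 genes passed, 4 feedback genes (Dusp4 at an adjusted p of 0.0763), 1 other family gene, 2 cascade genes and 7 other ERK-responsive genes. It left Spry1, Dusp5, Dusp6 and Spry2 past the threshold.

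With 1 library left out in turn, and so fewer samples, the counts ranged from 1048 to 1359 over all genes, 3 to 5 for the feedback genes, 1 to 2 for the other family genes, 2 to 3 for the cascade and 6 to 8 for the other ERK-responsive genes. The cause of the other changes was not tested. The number of libraries, 3 per group of a single clone, limits the precision.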
